A study of Homo sapiens with 3 samples.

Results

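Activity-regulated and immediate early genes are 44 human genes chosen by name, each found as exactly 1 row among the 78932 genes of the deposited expression tables. The list holds 34 general early genes, 4 neuron-specific genes (ARC, NPAS4, NPTX1 and NPTX2) and 6 regulators (CREB1, CREM, SRF, MEF2A, MEF2C and MEF2D). Growth factors, stress or depolarisation induce most of the general early genes in many cell types. RNA was measured in a single group of 3 untreated, wild-type samples of iCell GlutaNeurons (iGluta), glutamatergic neurons that a commercial supplier differentiates from human induced pluripotent stem cells. They had spent 3 weeks in culture, and the study profiled their resting transcriptome. All 3 samples come from the same commercial product, no stimulated or silenced culture was measured, and nothing in the labels says that the triplicates were separate cultures. Errors and p-values therefore measure how far these 3 samples differ, which may be technical variation.

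Immediate early genes are transcribed within minutes of a stimulus from factors that are already present in the cell. In neurons, calcium entry and kinase cascades act on CREB at cyclic AMP response elements (CREs), on SRF with its partners at CArG boxes, and on MEF2 proteins at AT-rich sites. The products are mostly transcription factors (FOS, JUN, EGR, NR4A, KLF), phosphatases and other inhibitors that end the signal (DUSP), and synaptic proteins such as ARC, which removes AMPA receptors, and the neuronal pentraxins, which cluster them.

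The promoters below are shown because they carry the sites of those regulators, and because EGR1, DUSP1, JUN and NPTX2 were over 1.5-fold higher in 1 of the 3 libraries (replicate 3) while FOS was not. They are RefSeq sequences (GRCh38.p14, the build of the files) and run 5' to 3' on the strand of the gene, upstream of its annotated start. Capitals mark CRE cores (TGACG or its reverse complement), CArG boxes, MEF2 sites and EGR sites (GCGNGGGCG or its reverse complement).
EGR1 (chr5:138465229-138465478, plus strand): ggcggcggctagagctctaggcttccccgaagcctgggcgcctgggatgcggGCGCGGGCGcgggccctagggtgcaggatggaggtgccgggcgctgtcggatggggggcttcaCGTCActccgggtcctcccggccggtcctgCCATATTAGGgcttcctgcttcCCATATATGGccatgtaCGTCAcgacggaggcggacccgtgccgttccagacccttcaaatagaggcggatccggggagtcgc
DUSP1 (chr5:172771196-172771445, minus strand): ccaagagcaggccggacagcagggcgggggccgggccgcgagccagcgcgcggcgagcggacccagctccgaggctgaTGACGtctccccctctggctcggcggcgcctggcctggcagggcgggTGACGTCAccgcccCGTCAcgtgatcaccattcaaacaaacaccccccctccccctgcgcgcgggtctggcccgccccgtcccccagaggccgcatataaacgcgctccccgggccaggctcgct
JUN (chr1:58784048-58784297, minus strand): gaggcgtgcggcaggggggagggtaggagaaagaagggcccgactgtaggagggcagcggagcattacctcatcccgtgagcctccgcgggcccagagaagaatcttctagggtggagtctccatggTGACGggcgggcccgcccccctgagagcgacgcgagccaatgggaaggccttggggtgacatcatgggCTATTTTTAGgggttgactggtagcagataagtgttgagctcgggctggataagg
NPTX2 (chr7:98617035-98617284, plus strand): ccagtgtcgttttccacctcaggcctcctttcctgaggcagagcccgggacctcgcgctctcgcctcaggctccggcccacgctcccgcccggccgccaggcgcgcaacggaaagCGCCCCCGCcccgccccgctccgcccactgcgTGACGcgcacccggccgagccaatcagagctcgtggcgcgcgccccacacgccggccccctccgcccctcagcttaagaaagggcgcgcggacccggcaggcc
FOS (chr14:75278578-75278827, plus strand): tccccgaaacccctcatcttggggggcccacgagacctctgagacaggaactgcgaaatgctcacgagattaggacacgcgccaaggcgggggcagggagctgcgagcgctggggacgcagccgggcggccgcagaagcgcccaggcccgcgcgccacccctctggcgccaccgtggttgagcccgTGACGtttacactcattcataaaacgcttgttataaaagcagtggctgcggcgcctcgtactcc
NPAS4 (chr11:66420844-66420903, plus strand): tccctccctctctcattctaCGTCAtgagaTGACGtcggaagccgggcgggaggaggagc
SRF (chr6:43171209-43171268, plus strand): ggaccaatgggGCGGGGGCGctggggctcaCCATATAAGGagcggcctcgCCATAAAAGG
The NPAS4 stretch runs from base -160 to -101, that of SRF from -60 to -1, and the others from -250 to -1, counted from the start. EGR1 held 2 CArG boxes, 2 CRE cores and 1 EGR site, and SRF, the factor that binds CArG boxes, held 2 of them in its own promoter. DUSP1 held 4 CRE cores, of which 2 form a full CRE (TGACGTCA). JUN held 1 CRE core and 1 MEF2 site, NPTX2 1 CRE core and 1 EGR site, and FOS 1 CRE core. The NPAS4 stretch held 2 CRE cores, and that of SRF also 1 EGR site. These counts cover the printed stretches only.

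The promoter table matched 34 of the 44 genes. FOSL1, EGR3, KLF10, NR4A2, DUSP4, DUSP5, GADD45A, CCN1, ARC and NPTX1 were not matched. Each window held 250 bases before the start and 50 after it, both strands were searched, and the shares describe the reference sequence with no test. The promoters of the table were not matched to the members in base composition, gene type or level. The part of these in the shares was not tested. A CRE core was found in 19 of the 34 windows (55.9%), against 25.0% of all 27305 promoters in the table, and a full CRE, which contains 2 overlapping cores, in 3 (8.8%) against 1.98%. The full CREs were in DUSP1, JUND and MAFF. EGR sites were found in 10 windows (29.4%) against 9.28% of all promoters, and CArG boxes in 2 (5.9%), EGR1 and SRF, against 1.29%. MEF2 sites were found in 2 windows (5.9%), JUN and KLF2, against 3.09%. AP-1 sites (TGANTCA) ran the other way, in 1 window (2.9%) against 7.76%, and so did E-boxes (CANNTG), in 18 windows (52.9%) against 68.9%. A match is a description of letters and not a measured binding site. Bases further upstream than 250 were not searched. A motif missing from a window, such as a CArG box for FOS, may therefore lie outside it.

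**Figure D1:**
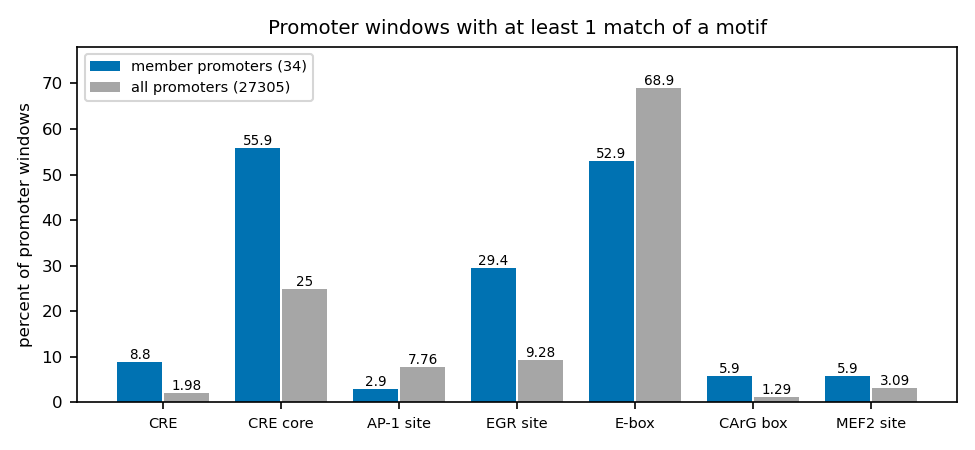
Percent of promoter windows (y axis) with at least 1 match of each motif (x axis), for the 34 matched members (left bars) and all 27305 promoters (right bars). CRE cores were in 55.9% of the members' windows and 25.0% of all windows, while E-boxes were in 52.9% and 68.9%.

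Levels are given in TPM (a share of all transcripts, corrected for gene length) as mean ± SD over n = 3 libraries, and single values are in the order of replicates 1, 2 and 3. The libraries held 41079348, 60092991 and 34732725 estimated counts. The detection floor of 3 counts corresponds to 0.073, 0.05 and 0.086 CPM (counts scaled to the library total) and covers counting error only. Replicate 3 stood apart from the others across the table. Transcripts of the mitochondrial genome took 4.25, 4.01 and 10.62% of TPM, and the common biological coefficient of variation was 0.188, or 0.12 without replicate 3 (edgeR). All 9 pan-neuronal markers were above 1 TPM, led by STMN2 at 2449 TPM. The label names glutamatergic neurons, and the vesicular glutamate transporter gene SLC17A6 was at 80.7, 105 and 160.1 TPM, beside the GABA-synthesising enzyme gene GAD1 at 203, 234 and 118 TPM (both chosen with earlier results known). Transcripts typical of both kinds of neuron were thus present, and in bulk RNA fewer cells of a type and less RNA per cell cannot be told apart.

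Most early genes were expressed without stimulation. Against a bar of 1 TPM, 35 of the 44 genes (79.5%) were above it, 3 were below it and 6 were undecided (limma, adjusted p under 0.05 over 38992 genes). Over all genes tested 40.6% were above and 45.1% below. Over the protein-coding genes alone 71.2% were above and 19.9% below, so the members' share is near that of protein-coding genes. The median of the 44 mean levels was 21.1 TPM, and the lowest and highest were 0.167 TPM (EGR2) and 415 TPM (JUND). Estimated counts that were not whole, a sign of reads shared with other genes, occurred for JUNB, NR4A3, IER2, DUSP6, PER2, MEF2A and MEF2C. All 6 regulators were above the bar, as were 3 of 4 neuron-specific and 26 of 34 general early genes.

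**Figure D2:**
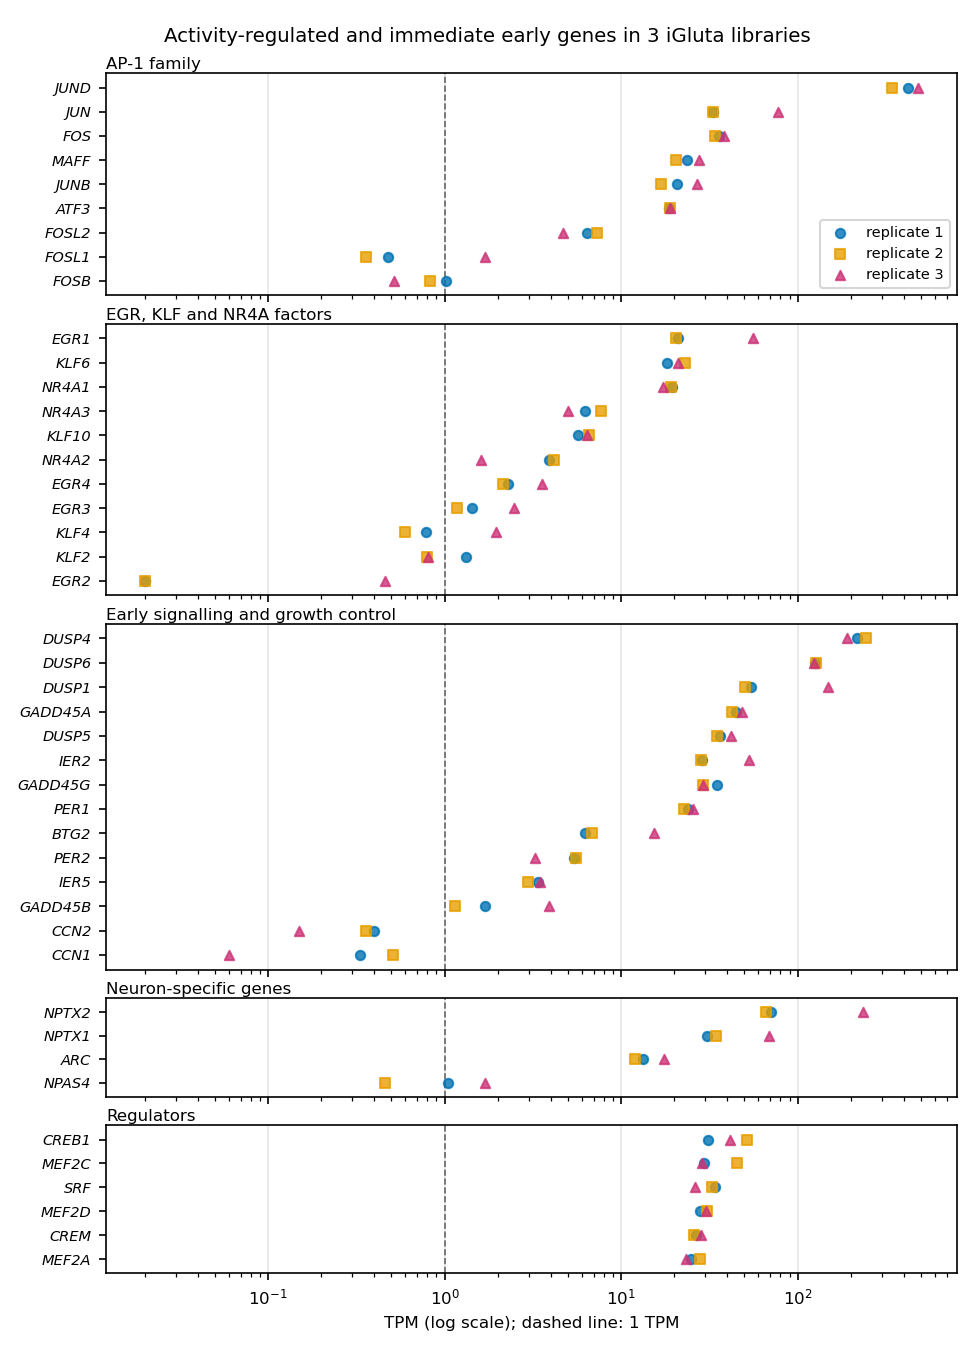
TPM on a log axis for each of the 44 genes (rows, grouped by role and ordered by mean level), with 1 point per library and the bar of 1 TPM as a dashed line. The 6 regulators sit in a narrow range (means of 25.4 to 41.4 TPM), while the EGR, KLF and NR4A factors span 0.167 to 32.6 TPM.

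The AP-1 proteins are pairs of FOS and JUN family members that bind DNA through a leucine zipper. JUND, the family member that cells usually make without a stimulus, was far ahead at 421, 343 and 483 TPM, a mean of 415 ± 70.3. FOS, the classical marker of recent activity, was at 35.72, 33.98 and 38.39 TPM, a mean of 36.0 ± 2.22. On TPM, FOS was thus nearly level across the libraries. On TMM-scaled counts (an edgeR scaling of the libraries) its replicate 3 value was above the mean of the others by 0.34 (log2). JUND exceeded FOS in 3 of 3 libraries, with a mean log2 ratio of 3.51 ± 0.16. An exact two-sided permutation test that flips signs cannot go below p = 0.25 with 3 libraries, which was its value here. JUND gave 82.2% of the summed JUN family TPM in replicate 3, against 88.7 and 87.2% in replicates 1 and 2.

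JUN itself was at 32.99, 33.24 and 77.7 TPM. It was level in replicates 1 and 2 and higher in replicate 3. Its log2 ratio to FOS was -0.11, -0.03 and 1.01, and its mean of 0.29 ± 0.63 did not exceed the spread (exact two-sided permutation test, p = 1.0). JUNB, an inducible relative, was at 20.8, 16.9 and 26.9 TPM.

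Other bZIP genes of the list were expressed at middle levels or near the bar. ATF3, a stress-induced factor, was at 18.7, 19.0 and 18.9 TPM, and MAFF, a small MAF protein without an activation domain, at 23.5, 20.6 and 27.5 TPM. FOSL2 was at 6.44, 7.3 and 4.7 TPM. FOSB, whose stable splice product accumulates with repeated activity, was undecided at 1.02, 0.83 and 0.52 TPM (limma, adjusted p = 0.389). FOSL1 was undecided as well at 0.48, 0.36 and 1.7 TPM (adjusted p = 0.352, limma), with 14, 16 and 47 counts behind these values. It was below the bar on CPM (adjusted p = 0.0295, limma) and without replicate 3 (adjusted p = 0.0472, limma). Among the 7 AP-1 genes above the bar the largest adjusted p was 3.83e-06 (FOSL2, limma).

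The EGR zinc finger factors were represented by EGR1. EGR1 was at 21.1, 20.5 and 56.1 TPM, EGR4 at 2.28, 2.14 and 3.58 and EGR3 at 1.43, 1.17 and 2.48 TPM. EGR1 made up 85.0, 86.0 and 89.6% of the family sum, and it exceeded EGR3 in 3 of 3 libraries (mean log2 ratio 4.09 ± 0.33, exact permutation p = 0.25). All 3 genes were highest in replicate 3. The log2 ratio of EGR1 to FOS was -0.76, -0.73 and 0.55, and its mean of -0.31 ± 0.74 was within the spread (exact two-sided permutation test, p = 0.5). EGR3 was undecided against the bar (adjusted p = 0.0808, limma), but on CPM it stood above 1 CPM by 1.42 on the log2 scale (adjusted p = 2.31e-06, limma). EGR2, which Schwann cells use to make myelin and neurons use as an early gene, was below the bar with counts of 1, 2 and 23 (0.02, 0.02 and 0.46 TPM; adjusted p = 0.00244, limma).

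The NR4A orphan nuclear receptors were led by NR4A1 at 19.4, 19.1 and 17.2 TPM, with NR4A3 at 6.27, 7.66 and 4.99 TPM. NR4A2, which also specifies dopamine neurons, was at 3.9, 4.15 and 1.62 TPM. None of these genes was highest in replicate 3 on TPM, unlike the EGR genes, although the sign of NR4A1 in replicate 3 turned with the scaling of the libraries (-0.16 on TPM and 0.01 with TMM, log2). NR4A1 exceeded NR4A2 in 3 of 3 libraries (mean log2 ratio 2.6 ± 0.64, exact permutation p = 0.25).

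Of the Krüppel-like factors, KLF6 was highest at 18.3, 23.0 and 20.9 TPM, followed by KLF10, a TGF-beta early gene, at 5.74, 6.57 and 6.44 TPM. KLF4, a pluripotency factor, was undecided at 0.79, 0.6 and 1.97 TPM (limma, adjusted p = 0.973). KLF2, an early gene of endothelium under flow, was also undecided at 1.32, 0.8 and 0.81 TPM (limma, adjusted p = 0.861). KLF6 exceeded KLF4 with a mean log2 ratio of 4.25 ± 0.86 in 3 of 3 libraries (exact permutation p = 0.25).

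The dual-specificity phosphatases, which switch off MAP kinases, included the 3 most abundant early signalling genes, DUSP4, DUSP6 and DUSP1. DUSP4 was at 218, 244 and 191 TPM and DUSP6, the cytoplasmic ERK phosphatase, at 126, 127 and 125 TPM. DUSP6 was thus almost the same in the 3 libraries on TPM, with a mean of 126 ± 1.2, while on TMM-scaled counts replicate 3 was above the mean of the others by 0.38 (log2). DUSP5, a nuclear ERK phosphatase, was at 36.3, 34.9 and 41.7 TPM. DUSP1, a rapidly induced nuclear phosphatase, was at 54.7, 50.5 and 150 TPM, so it was lower than DUSP6 in replicates 1 and 2 and higher in replicate 3. The log2 ratio of DUSP6 over DUSP1 was 1.2, 1.33 and -0.26, averaging 0.75 ± 0.89 within the spread (exact two-sided permutation test, p = 0.5). Without replicate 3 it was 1.26 and over 2 SD from 0, with the SD from only 2 libraries.

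Genes of growth arrest and DNA damage differed among themselves. GADD45A, a p53 target, was at 44.8, 42.3 and 48.7 TPM and GADD45G at 34.8, 29.1 and 29.3 TPM. GADD45B, which neurons induce with activity and which acts in DNA demethylation, was at 1.69, 1.14 and 3.9 TPM. GADD45G exceeded GADD45B in 3 of 3 libraries (mean log2 ratio 3.91 ± 0.9, exact permutation p = 0.25). GADD45B was just above the bar (adjusted p = 0.0401, limma), but it was undecided in 5 of the alternatives. The limma adjusted p was 0.0814 with pseudocount 1, 0.719 on CPM, 0.0872 without a variance trend, 0.0527 without replicate 1 and 0.205 without replicate 3. BTG2, an antiproliferative gene, was at 6.24, 6.82 and 15.3 TPM.

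The early response gene IER2 was at 28.8, 28.4 and 53.1 TPM and its relative IER5 at 3.4, 2.96 and 3.46 TPM. The clock repressor gene PER2 was at 5.38, 5.56 and 3.24 TPM, and its relative PER1, which CREB induces, at 24.0, 22.6 and 25.4 TPM. PER2 was below PER1 in 3 of 3 libraries (mean log2 ratio -2.36 ± 0.5, exact permutation p = 0.25). IER2 was higher and PER2 lower in replicate 3, while PER1 and IER5 stayed close to level.

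The matricellular genes CCN1 and CCN2, targets of YAP and SRF in fibroblasts and endothelium, were below the bar. CCN1 was at 0.33, 0.51 and 0.06 TPM and CCN2 at 0.4, 0.36 and 0.15 TPM, from 2 to 23 counts a library (limma, adjusted p = 0.0133 and 0.0102). Without replicate 3 CCN1 was undecided (adjusted p = 0.0504, limma). Summed TPM of 6 endothelial markers was 0.9, 1.05 and 0.24, with PECAM1 and CDH5 at 0 counts in every library, and of 7 mesenchymal markers 12.7, 12.8 and 9.55, with LUM at 0 counts. Their part in the CCN values was not tested.

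The neuron-specific genes had means from 1.07 TPM (NPAS4) to 124 TPM (NPTX2). NPTX1, a pentraxin that many neurons make without stimulation, was at 30.8, 34.4 and 68.8 TPM, and NPTX2, the pentraxin that activity induces, at 70.4, 66.2 and 236 TPM. Each was highest in replicate 3, where NPTX2 gave 77.4% of their sum, against 69.6 and 65.8% in replicates 1 and 2. NPTX1 was lower than NPTX2 with a mean log2 ratio of -1.3 ± 0.43 in 3 of 3 libraries (exact permutation p = 0.25), but by -0.25 on CPM, within 2 SD of 0. ARC (chromosome 8, 142611049 to 142614479) was at 13.24, 11.98 and 17.56 TPM, a mean of 14.3 ± 2.93.

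NPAS4, an early factor that responds to calcium entry and not to growth factors, was undecided at 1.05, 0.46 and 1.7 TPM, from 48, 42 and 70 counts (limma, adjusted p = 0.882). ARC exceeded NPAS4 by a log2 ratio of 3.75 ± 0.6 in 3 of 3 libraries, and it was below FOS by -1.35 ± 0.2 (exact permutation p = 0.25 for each). NPAS4 was the lowest of the 4 neuron-specific genes in every library and NPTX2 the highest.

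The regulators lay close together. CREB1, the CRE-binding activator, was at 31.0, 51.9 and 41.2 TPM, and CREM, whose short ICER product represses CREs, at 26.4, 25.8 and 28.5 TPM. SRF was at 34.02, 32.82 and 26.35 TPM. MEF2C was at 29.6, 45.6 and 28.8 TPM, MEF2D at 28.1, 30.8 and 30.4 and MEF2A at 24.8, 28.0 and 23.2 TPM. The CREB1 to CREM log2 ratio of 0.59 ± 0.39 was within 2 SD of 0 (exact permutation p = 0.25), while on CPM, which is not divided by length, it was 2.54 and over 2 SD from 0. No regulator was highest in replicate 3 by over 1.5-fold, and MEF2C was highest in replicate 2 by that margin on TPM but not with TMM or DESeq2 scaling.

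Comparisons between roles were made within each library from the median log2(TPM + 0.1) of a role. Median TPM of the neuron-specific genes was 22.0, 23.2 and 43.2, against 12.3, 12.3 and 16.3 for the general early genes. The difference of the medians of log2(TPM + 0.1), which for an even number of genes is not the log of the ratio of these TPM medians, was 0.89, 0.83 and 1.09. Its mean of 0.94 ± 0.14 was over 2 SD from 0 with 1 sign in 3 of 3 libraries (exact permutation p = 0.25). It was 0.16 without NPTX1 and 0.47 without EGR2 (the gene that a minimum of 10 mean counts leaves out), and neither was over 2 SD from 0. On CPM it was 1.56.

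Regulators stood above the general early genes by 1.4, 1.47 and 0.82, a mean of 1.23 ± 0.36 (exact permutation p = 0.25). This was 0.77 with a minimum of 10 mean counts and 1.96 on CPM, each over 2 SD from 0. Regulators against neuron-specific genes gave 0.51, 0.64 and -0.28, a mean of 0.29 ± 0.5 within the spread (exact permutation p = 0.5). Without replicate 3 this was 0.58 and over 2 SD from 0, with the SD from only 2 libraries. Of the 15 ratios computed between members, 10 were over 2 SD from 0 with 1 sign in every library. With a library left out, which leaves 2, the number was 9 to 12. None of the 15 ratios could pass a test at 0.05, since 0.341 was the smallest exact permutation p after Benjamini-Hochberg adjustment over them.

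More of the early genes were higher than lower in replicate 3, while over all genes more were lower than higher. Each library was set against the mean of the other 2, and genes more than 1.5-fold apart on log2(TPM + 0.1) were counted, as a description with no test. Over all 44 genes, 14 (31.8%) were higher in replicate 3, 5 (11.4%) were lower and the rest were within 1.5-fold, against 12.5% higher and 24.2% lower over the 38992 genes with any TPM. Among genes with a mean of at least 1 TPM, 12 of 38 early genes (31.6%) were higher and 2 (5.26%) lower, against 6.41 and 12.7% of 18192 genes, or 5.09 and 7.81% of the protein-coding ones. In replicate 1, 0 of the 38 were higher and 7 lower, against 4.53 and 7.31% of all genes. In replicate 2, 1 was higher (MEF2C) and 9 lower, against 7.32 and 4.3%. All of these lower genes were among the 12 higher in replicate 3, which enters the mean they were set against. KLF4 and NPAS4 reached a mean of 1 TPM only through replicate 3 (their means in replicates 1 and 2 were under 1 TPM). This minimum left out 6 genes (FOSB, FOSL1, EGR2, KLF2, CCN1 and CCN2). Between replicates 2 and 1, by contrast, 2 of the 38 (CREB1 and MEF2C) were over 1.5-fold higher in replicate 2 and 1 (NPAS4) lower, against 8.09 and 3.56% of the 18192 genes.

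**Figure D3:**
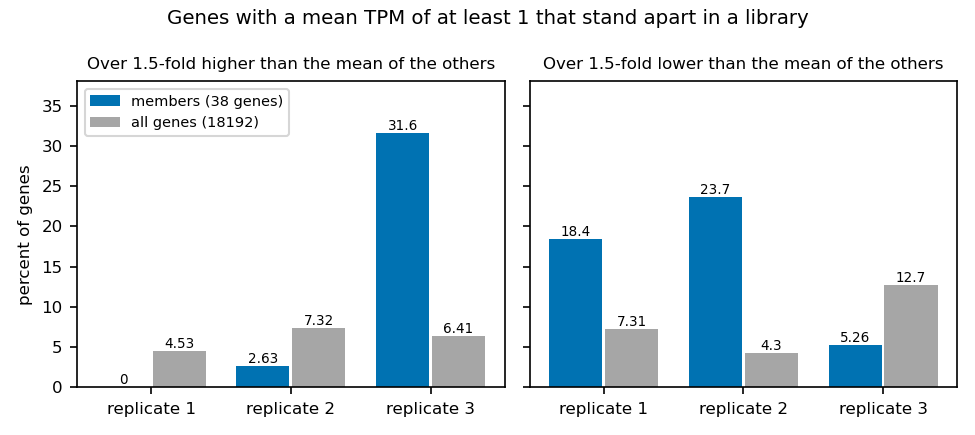
Percent of genes with a mean of at least 1 TPM (y axis) that were over 1.5-fold higher (left panel) or lower (right panel) in a library than in the mean of the other 2, for 38 members (left bars) and all 18192 genes (right bars). The members' share was 31.6% higher in replicate 3, against 6.41% of all genes. Each library enters the mean of the others, so the shares of the 3 libraries are not independent.

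The genes that were higher in replicate 3 came from several families. NPTX2 was 3.45-fold its mean in replicates 1 and 2, DUSP1 2.84-fold, KLF4 2.83-fold, GADD45B 2.76-fold, EGR1 2.7-fold, JUN and BTG2 2.35-fold each, NPAS4 2.25-fold and NPTX1 2.11-fold. On TPM, EGR3 (1.91-fold), IER2 (1.86-fold) and EGR4 (1.62-fold) were nearest to the limit on its inner side. JUNB (1.42-fold) and ARC (1.39-fold) were nearest on its outer side. On TMM-scaled counts EGR3 was further from the limit, with a log2 difference of 1.4, against 0.98 for IER2 and 0.76 for EGR4. KLF4 (35, 48 and 85 counts), GADD45B (38, 36 and 78 counts) and NPAS4 (48, 42 and 70 counts) rest on few counts. The thinner genes FOSL1 (4.05-fold) and EGR2 were also higher. For EGR2 the ratio of CPM was 22.3 with an exact 95% counting interval of 6.75 to 116, from 23 counts against 3 in the other libraries together. Of the 14 genes, 3 were neuron-specific, 11 were general early genes and none was a regulator.

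Early genes that are often induced together did not all follow. On TPM, FOS was 1.1-fold, ATF3 1.0-fold, DUSP5 1.17-fold, DUSP6 0.985-fold, PER1 1.09-fold and NR4A1 0.892-fold in replicate 3 relative to the mean of the others. On TMM-scaled counts their log2 differences were, in the same order, 0.34, 0.09, 0.35, 0.38, 0.11 and 0.01, each within 1.5-fold. Lower in replicate 3 on TPM were NR4A2 (0.402-fold), PER2 (0.592-fold), FOSB (0.562-fold), CCN2 (0.395-fold) and CCN1. With TMM or DESeq2 scaling FOSB was within 1.5-fold (log2 differences of -0.41 and -0.4). For CCN1 the ratio of CPM was 0.182 with a 95% counting interval of 0.0211 to 0.714. FOSL2 (0.684-fold) was nearest on the outer side of the lower limit.

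**Figure D4:**
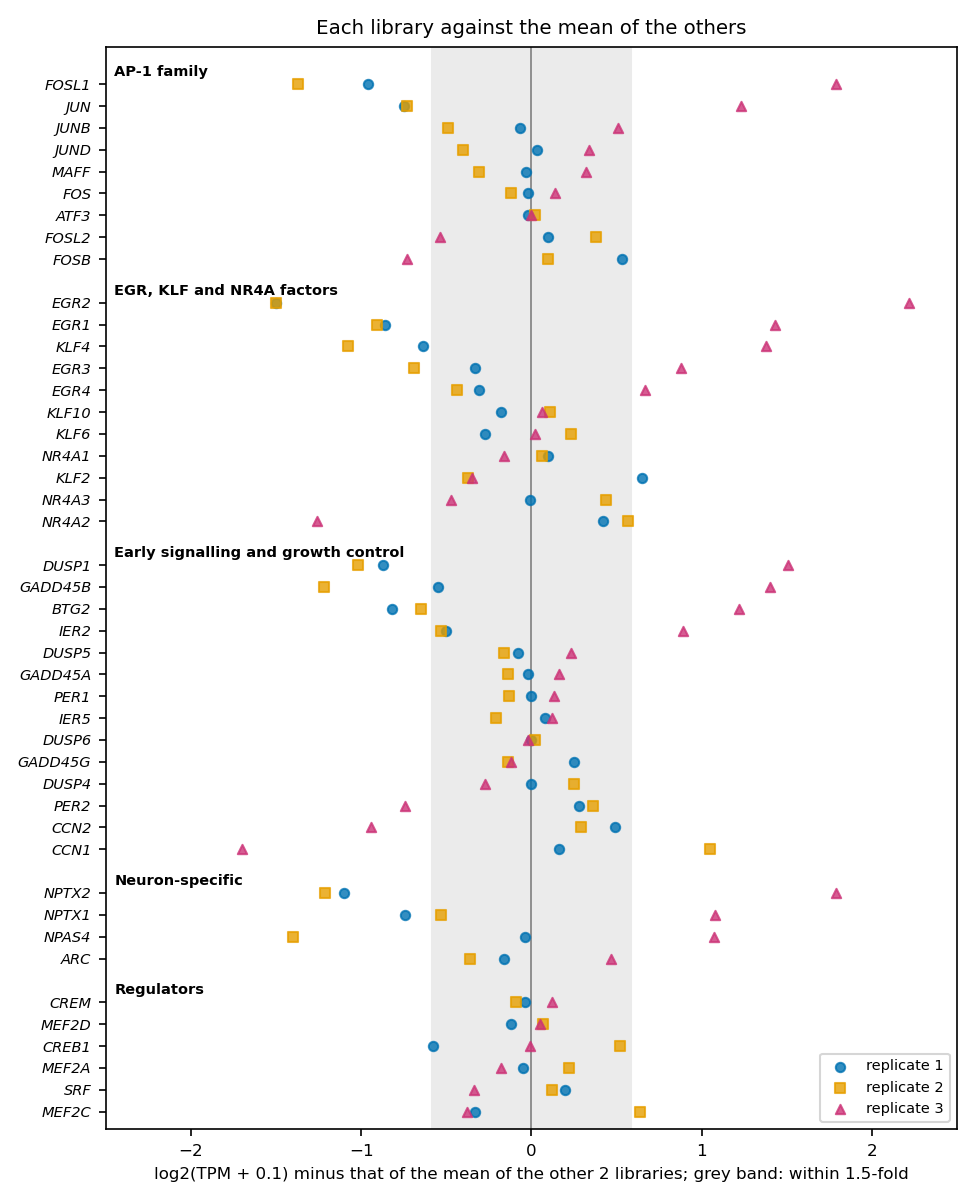
log2(TPM + 0.1) of each library minus that of the mean of the other 2 (x axis) for the 44 genes (rows, by role), with 1 point per library and a grey band for differences within 1.5-fold. Points of replicate 3 lie right of the band for 14 genes and left of it for 5, and no regulator has its replicate 3 point outside the band.

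The way the libraries are scaled changed the higher count by 1 or 2 genes. The median over the 18192 genes was -0.14 in replicate 3 on TPM and -0.01 or 0.0 on counts scaled with TMM or DESeq2 size factors, so on TPM the early genes are set against a slightly lowered background. With TMM or DESeq2 scaling 14 of the 38 genes were higher, the same 12 plus JUNB and ARC, against 7.22 and 7.51% of all genes, and 2 were lower. With TPM rescaled without mitochondrial transcripts 13 were higher, the same 12 plus JUNB. The signs of ATF3, NR4A1, DUSP6, CREB1 and MEF2A in replicate 3 depended on the scaling, and none of these reached 1.5-fold in any of the 4 scalings. Mitochondrial transcripts and SLC17A6 were also higher in replicate 3 and GAD1 lower, and their part in the early gene values was not tested.

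Among genes with enough counts, the estimated spread of the early genes was close to that of the table. Their median biological coefficient of variation was 0.179 (41 genes with enough counts), against 0.177 for 19089 genes, and without replicate 3 it was 0.11 against 0.116 (edgeR). With no filter on counts it was 0.198 for the 44 genes, against 0.394 for 38905 genes. It differed by role, with medians of 0.334 for the 4 neuron-specific genes, 0.272 for the EGR, KLF and NR4A factors, 0.184 for early signalling genes, 0.171 for the AP-1 family and 0.124 for the regulators. The largest values were those of FOSL1 (0.527), GADD45B (0.443), NPTX2 (0.441) and KLF4 (0.429), and the smallest those of MEF2D (0.112) and DUSP4 (0.114). In edgeR a gene's value is drawn toward that of genes at a similar level. The values and medians here thus partly reflect level, and not only each gene's own spread. These values were not tested against each other.

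Promoter motifs were counted in the 11 matched genes that were higher in replicate 3 and in the 23 other matched genes, with no test. A CRE core was in 9 of 11 and 10 of 23 windows, and an EGR site in 5 of 11 and 5 of 23. An E-box was in 5 of 11 and 13 of 23, an AP-1 site in 0 of 11 and 1 of 23, and a MEF2 site in 1 of 11 and 1 of 23. The full CRE was in 1 of 11 (DUSP1) and 2 of 23 (JUND and MAFF), and a CArG box in 1 of each (EGR1 and SRF). Over all promoters in the table a CRE core was in 25.0% and an EGR site in 9.28%. The FOS core at bases -64 to -60 is counted among the 10 of 23. The genes were split by their own replicate 3 values, and any part of a motif in those values was not tested.

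Other genes that neuronal activity induces were also expressed. Of 25 such genes outside the 44, 23 were above 1 TPM (92.0%, against 40.6% of all genes and 71.2% of protein-coding genes) and 2 below (limma, adjusted over all genes). The highest were the secretory granule genes VGF (1345, 1136 and 1512 TPM) and SCG2 (905, 945 and 1319 TPM), the prohormone convertase gene PCSK1 (218, 275 and 403 TPM) and the neurite growth gene NRN1 (80.4, 79.1 and 113 TPM). The lowest were INHBA, an activin subunit, at 0.0267 ± 0.00577 TPM and PTGS2, the inducible cyclooxygenase, at 0.0233 ± 0.0153 TPM, from 1 to 4 counts a library. All 4 of the highest genes were highest in replicate 3. Of the 23 genes above the bar, 5 were over 1.5-fold higher in replicate 3, against 6.41% of all genes of at least 1 TPM. They were GEM (6.15-fold), BHLHE40 (2.65-fold), CSRNP1 (1.72-fold), PCSK1 (1.63-fold) and ADCYAP1 (1.62-fold), and RASD1 (0.605-fold) was lower. These 6 were named after their values were seen, PCSK1 excepted.

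Most upstream genes were expressed as well. The 31 genes of this list were kinases, phosphatases, cofactors and further transcription factors of calcium and growth factor signalling to CREB, SRF and MEF2. Of them, 29 were above the bar (93.5%, against 40.6% of all genes and 71.2% of protein-coding genes), 1 was below and 1 was undecided. The highest were MAP2K2, an ERK kinase, at 188 ± 21.6 TPM, RPS6KA2, a ribosomal S6 kinase, at 156 ± 13.0, CAMK2B, a calcium-calmodulin kinase, at 138 ± 2.82, and PPP3CB, a calcineurin subunit, at 137 ± 12.3. The lowest were the SRF partner ELK3 (0.65, 0.09 and 0.16 TPM, below the bar) and MEF2B (1.55, 0.94 and 0.07 TPM, undecided). None of the 29 with a mean of at least 1 TPM was over 1.5-fold higher in replicate 3, against 6.41% of all genes of at least 1 TPM, and 2 (6.9%) were over 1.5-fold lower, against 12.7% (CREBBP and ELK4, named after their values were seen).

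**Figure D5:**
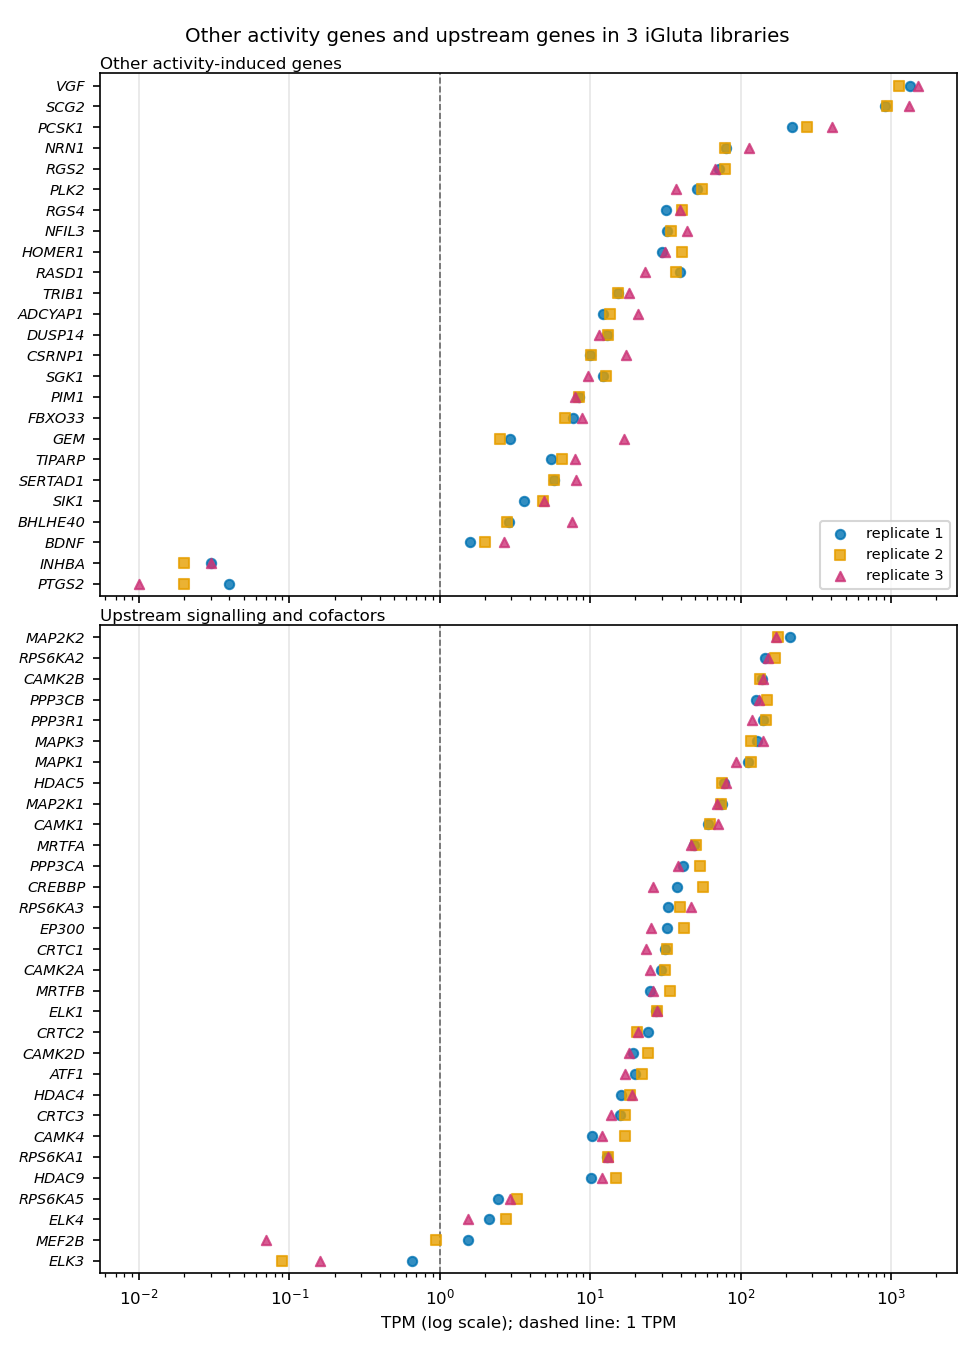
TPM on a log axis for 25 other activity-induced genes (upper panel) and 31 upstream genes (lower panel), with 1 point per library and the bar of 1 TPM as a dashed line. VGF and SCG2 reach 905 TPM or more in every library, INHBA and PTGS2 lie at or below 0.04 TPM, and GEM is at 16.75 TPM in replicate 3, against 2.92 and 2.53 TPM in replicates 1 and 2.

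Markers of cells that also use early genes were mostly low. Of 36 markers of endothelial, mesenchymal, astrocyte, microglial, oligodendrocyte and dividing cells, 5 were above 1 TPM and 18 below it (limma). The rest were undecided or at 0 counts. Over all genes 40.6% were above and 45.1% below, or 71.2 and 19.9% of protein-coding genes. The astrocyte list had 1 gene above the bar, 2 below it and 3 undecided. The 5 markers above it were CCNB1 (7.13 TPM, dividing cells), TAGLN (5.33 TPM), COL1A2 (3.36 TPM) and ACTA2 (2.69 TPM) of the mesenchymal list, and S100B (2.11 TPM, astrocytes). The highest of the endothelial and microglial lists were VWF (0.44 TPM) and CSF1R (0.68 TPM), and neither these lists nor the oligodendrocyte list had a gene above the bar. Summed TPM was 6.14, 4.03 and 4.8 for astrocyte, 0.89, 1.11 and 0.37 for microglial, 1.7, 1.56 and 1.02 for oligodendrocyte and 9.43, 8.87 and 4.62 for dividing cell markers. AIF1, C1QA, C1QB and MAG had 0 counts in every library. None of the 6 sums was highest in replicate 3, but CCNB1 made up most of the dividing cell sum, and single markers such as S100B (2.51 TPM in replicate 3, against 2.21 and 1.6 TPM in replicates 1 and 2) were highest there. Their part in the early gene values was not tested.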

How the data were processed

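PolyA-selected, strand-specific libraries of 3 untreated samples were sequenced as read pairs, per the labels' protocols. The authors deposited estimated counts and TPM per gene, and the submitters' processing notes name RSEM and GRCh38.p14. All sample columns were used. The 44 genes, the other lists and the tests were chosen with earlier results of these data known. Each gene's log2(TPM + 0.1) was tested against 1 TPM with limma 3.58.1 (R 4.3.3, trended variance, Benjamini-Hochberg over the 38992 genes with any TPM, threshold 0.05). Roles and 15 gene pairs were compared within each library, and a difference was called where its sign was the same in all 3 libraries and its mean exceeded 2 SD. Coefficients of variation came from edgeR 4.0.16 on the estimated counts, rounded and TMM-scaled, for the 19089 genes its filter kept. DESeq2 1.42.0 size factors, other pseudocounts, CPM, filters, left-out libraries and a 2-fold limit were tried. Outside the 44, the 4 highest and 2 lowest genes of each list are named, and any others were named after their values were seen. Fits were tested on simulated data.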

Additional observations from a re-analysis of the deposited data

How the results depend on the processing

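No paired analysis was possible because the series has 1 group. A result with a library left out rests on 2 libraries, and its SD on 2 values. The neuron-specific minus general difference (0.94) was not over 2 SD from 0 with a minimum of 10 mean counts (0.47, which leaves out EGR2), with role means (0.85) and without NPTX1 (0.16). Regulators minus neuron-specific genes ranged over 0.12 to 0.58 with a library left out, and was over 2 SD from 0 only without replicate 3. The EGR1 to FOS ratio (-0.31) turned to 0.4 on CPM, and without replicate 3 it was -0.74 and over 2 SD from 0. With a library left out, JUN to FOS ranged over -0.07 to 0.49 and CCN1 to CCN2 over -0.43 to 0.09. Undecided genes changed side of the bar. The next values are log2 differences from 1 TPM, or from 1 CPM where CPM is named, and not levels. The difference of FOSB was 0.26 on CPM. That of KLF2 was 0.03 on CPM, 0.02 without mitochondrial transcripts and -0.28 to 0.05 with a library left out. For KLF4 it was 0.03 with pseudocount 1, 0.24 on CPM, 0.07 without mitochondrial transcripts and -0.48 to 0.3 with a library left out. For NPAS4 it was 0.0 with pseudocount 1, 0.23 on CPM, 0.02 without mitochondrial transcripts and -0.45 to 0.39 with a library left out. The cause of these changes was not tested. Genes below the bar numbered 1 of the AP-1 family (FOSL1) on CPM and 0 to 1 with a library left out, 1 to 2 early signalling genes with a library left out, and 2 upstream genes on CPM and 0 to 1 with a library left out. The minimum of 10 mean counts tests fewer low genes and left 0 EGR, KLF and NR4A factors, 0 other activity-induced genes, 0 upstream genes and 4 markers of other cell types below it. Genes higher in replicate 2 numbered 0 with TMM, DESeq2 and the 2-fold limit, which also left 1 gene lower in replicate 1, 5 in replicate 2 and 1 in replicate 3. Without the filter on mean TPM, chosen after seeing the data, 5 were lower in replicate 3. The members' median coefficient of variation was 0.198 with no filter, against 0.394 for all genes, and 0.11 to 0.214 with a library left out. Counts under about 50 in every library limit FOSL1, EGR2, CCN1 and CCN2. Such counts also limit KLF4, GADD45B and NPAS4 in replicates 1 and 2, and FOSB and KLF2 in replicate 3.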
